A study of Mus musculus with 8 samples.

Results

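Lenvatinib, a kinase inhibitor used against hepatocellular carcinoma, was compared with no treatment in mouse tumour organoids of the lines SNU-6624-TO and SNU-6625-TO. Organoids are 3-dimensional cultures of epithelium. The groups were set by the sample labels and not by a measured value. The comparison was chosen with earlier results of these data known. It holds 4 of the 8 libraries of the series, 1 lenvatinib-treated library and 1 parental library of each line. The parental libraries are labelled as controls. The labels describe all of these organoids as hepatocellular carcinoma related to MASH (metabolic dysfunction-associated steatohepatitis) of genotype WT, leave the dose and duration of lenvatinib unstated, and name no vehicle, batch, animal or age. The same lines also had 1 resistant library each, from SNU-6624-TO-LEN and SNU-6625-TO-LEN, cultures labelled as lenvatinib-resistant and as controls for treatment. The labels do not say whether the resistant organoids were kept in lenvatinib. These 2 resistant libraries entered the fit and served as a further reference. The other parental lines of the series had no lenvatinib library.

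Total counts were 56558806 and 54385338 in the lenvatinib libraries of SNU-6624-TO and SNU-6625-TO, 60394231 and 49011663 in the parental libraries and 50540641 and 61032387 in the resistant libraries. From 19426 to 20570 genes per library were detected in these 6 libraries. Of all counts, ribosomal RNA genes made up 0.0448% and 0.0533% after lenvatinib, against 0.1023% and 0.1071% in parental and 0.0411% and 0.0416% in resistant libraries. Mitochondrially encoded genes held 5.841% and 6.187% of counts after lenvatinib, against 8.525% and 7.761% in parental and 5.067% and 6.077% in resistant libraries. In both respects the lenvatinib libraries lay nearer to the resistant than to the parental ones, and the part of library preparation in the results was not tested.

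Expression is given below as normalised counts in CPM, the count scaled to the library's total and corrected by TMM (trimmed mean of M values), a scaling factor computed from the bulk of the genes. CPM is not corrected for gene length, so levels are compared between libraries and not between genes. A pair of values always gives SNU-6624-TO and then SNU-6625-TO. A change is the log2 fold change of lenvatinib over parental from the edgeR quasi-likelihood fit with its standard error (SE), over 2 lines, and a gene is called when its adjusted p is under 0.05. A negative value means lower after lenvatinib. Genes are grouped by lists of known function, and a list's count is over the members that passed a filter on low counts. A gene expressed in the parental libraries alone passes that filter through them, so that the median and the signs of a list are descriptions. Members that were not called and are named as contrasts were chosen after their values were seen.

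Lenvatinib blocks the receptor tyrosine kinases of the VEGF and FGF families together with PDGFRA, KIT and RET. In a tumour these receptors sit partly on blood vessels and stromal cells, and partly on the tumour epithelium, where their signals run through the ERK kinase cascade to transcription factors such as those of the ETS family. Epithelial cells under stress use separate transcriptional programmes: heat shock factors for misfolded protein, ATF4 for shortage of amino acids or disturbed translation, and NRF2 for oxidants and electrophiles, while sterol shortage acts through SREBP factors and DNA damage through p53.

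Of 17038 genes tested, 985 were called, which is 5.78%. Of these, 289 were higher after lenvatinib (1.7% of those tested) and 696 were lower (4.08%). All 985 moved the same way in both lines. The test favours such genes, because disagreement between the lines counts as spread, so this is not separate evidence. In all 289 rises and in 683 of the falls, both lenvatinib libraries lay on one side of both parental libraries, and the groups overlapped in the other 13. Such separation was also common beyond the calls. Of 344 tested zinc finger genes, 182 were separated upward and 66 downward, with 4 called higher and 4 lower. The share of separated genes over all genes tested was not counted. Separation noted for single genes below therefore only describes their values. The falls were larger than the rises: 428 called genes were more than 4-fold lower and 31 more than 4-fold higher, with a median log2 fold change of -2.39 among called falls and 1.21 among called rises, against -0.01 over all genes tested.

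The number of calls rests on every one of the 4 libraries compared and on the spread of the resistant libraries, which share the estimate of variance. Without the parental library of SNU-6624-TO or of SNU-6625-TO, or without the lenvatinib library of SNU-6624-TO or of SNU-6625-TO, 0 genes were called by edgeR, while 2859, 2206, 2099 and 2750 genes then had an unadjusted p under 0.05. A fit to the 4 lenvatinib and parental libraries alone called 7942 of 16444 genes, of which 3746 were higher (22.8%) and 4196 lower (25.5%), and it held all 985 genes called above. Counts from that fit are given with those of each list, as the 4-library fit. With the library total as the only scaling, 43.4% of the calls were rises, against 29.3% with TMM. Nothing in the labels says that the libraries of a line came from separate cultures, so the p-values reflect only how these libraries vary.

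**Figure D1:**
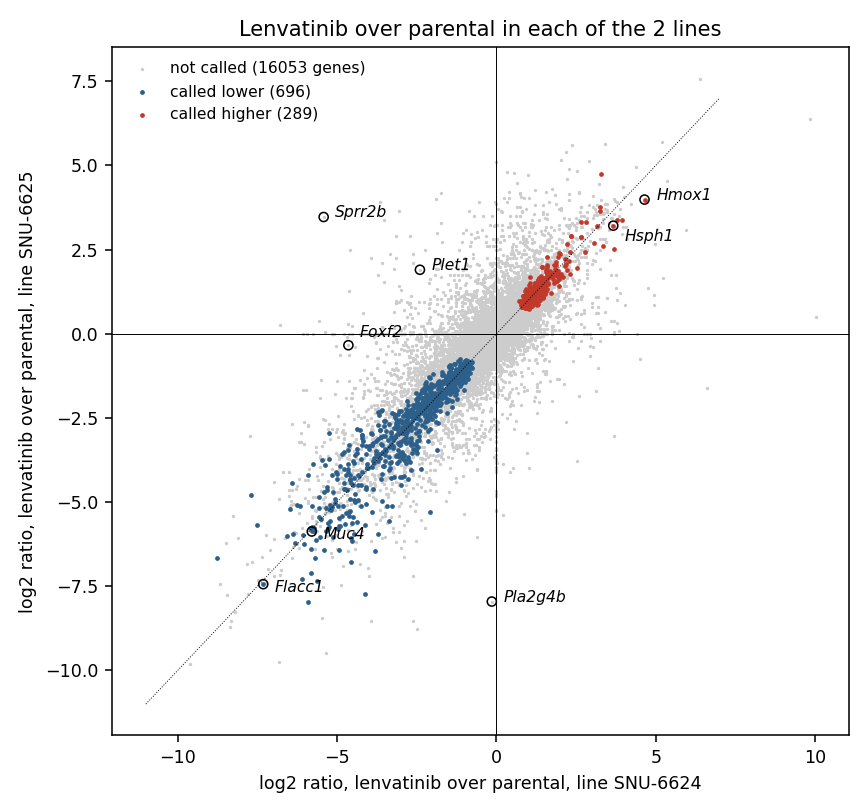
Change in each line. Each point is 1 tested gene, with the log2 ratio of lenvatinib over parental CPM in SNU-6624-TO on the x axis and in SNU-6625-TO on the y axis; called genes are coloured by direction, and 8 genes are named. The 289 called rises and 696 called falls lie in the quadrants where both lines moved the same way, and Sprr2b and Plet1 lie apart, with ratios of opposite sign in the 2 lines.

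The list of target receptors, which also holds Pdgfrb, had 3 members with 0 counts in the 4 libraries compared. Kdr (VEGFR2), Kit and Pdgfrb, receptors best known from vessels, mast cells and stroma, had 0 counts in all of the lenvatinib, parental and resistant libraries of both lines, where a count of 0 allows at most 0.0612 CPM in a parental library (3 counts, counting error only). Of the 11 target receptors, 6 passed the filter on low counts and 1 was called (3 of 4 lower and 1 higher in the 4-library fit). Ret (chr6:118151748-118197744 in GRCm38.p6), the receptor of the GDNF family of ligands, had 0.585 and 0.219 CPM after lenvatinib, against 13.5 and 6.89 CPM in the parental libraries. Both lenvatinib libraries were far below both parental ones, and Ret was called lower (-4.69, SE 0.63, adjusted p = 0.0415 by edgeR). Fgfr3 had 2.08 and 1.95 CPM after lenvatinib, against 8.95 and 2.68 CPM in the parental libraries, lower in both lines and not called (-1.38, SE 0.58, adjusted p = 0.19 by edgeR). Flt4 (VEGFR3) had 2.53 and 2.73 CPM after lenvatinib, against 1.22 and 0.443 CPM in the parental libraries, higher in both lines and not called (1.83, SE 0.54, adjusted p = 0.107 by edgeR). Fgfr4, the receptor for the bile acid hormone FGF19 and its mouse counterpart FGF15, had 0 counts in both lenvatinib libraries and 0.602 and 0.846 CPM in the parental libraries.

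Among 17 tested ligands of these receptors, 2 fell and 0 rose, and the 4-library fit called 7 lower and 2 higher. Pdgfc, a ligand of PDGFRA, had 0.7401 and 1.48 CPM after lenvatinib, against 11.4 and 14.2 CPM in the parental libraries, well apart in both lines (-3.57, SE 0.37, adjusted p = 0.0356 by edgeR). Fgf1, an FGF that binds all FGF receptors, had 3.44 and 9.16 CPM after lenvatinib, against 8.95 and 27.3 CPM in the parental libraries. SNU-6625-TO was the higher line in both groups, so that the groups overlapped, and lenvatinib was lower within each line (-1.48, SE 0.25, adjusted p = 0.05 by edgeR, which was under the threshold before rounding). Vegfa, the main angiogenic ligand, had 784 and 681 CPM after lenvatinib, against 563 and 520.5 CPM in the parental libraries and was not called (0.43, SE 0.19, adjusted p = 0.205 by edgeR).

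Few genes downstream of ERK were called. Of 20 tested members of the ERK output and feedback list, 1 rose and 1 fell. Over all genes tested 1.7% were called higher and 4.08% lower, so these counts are near the general share. Both called members are ETS factors of one subfamily that are induced by FGF signalling in many tissues. Etv4 had 12.1 and 16.6 CPM after lenvatinib, against 45.7 and 55.96 CPM in the parental libraries (-1.84, SE 0.19, adjusted p = 0.0356 by edgeR). Etv5 had 42.1 and 31.5 CPM after lenvatinib, against 17.9 and 12.2 CPM in the parental libraries (1.3, SE 0.19, adjusted p = 0.0429 by edgeR). In neither gene did the groups overlap, and the directions were opposite. The ERK phosphatase gene Dusp6 (236 and 306 CPM after lenvatinib, against 202 and 290.4 CPM in the parental libraries) and the feedback inhibitor gene Spry2 (29.1 and 29.2 CPM after lenvatinib, against 25.6 and 25.6 CPM in the parental libraries) were not called, with log2 fold changes of 0.15 and 0.19. The 4-library fit called 6 members of this list higher and 6 lower, against 22.8% higher and 25.5% lower over all its genes. Of 24 immediate early and AP-1 genes 0 were called in the main fit, and 4 were called higher and 11 lower in the 4-library fit. Nr4a1, an orphan nuclear receptor that growth factors induce within minutes, had 118 and 90.96 CPM after lenvatinib, against 279.8 and 209 CPM in the parental libraries (-1.22, SE 0.22, adjusted p = 0.0537 by edgeR).

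The heat shock list, which holds cytosolic chaperones, their co-chaperones, the factors that control them and the HSP10 gene, had more called rises than any other list examined. Heat shock proteins fold new and damaged protein in the cytosol, and HSF1 drives their genes from heat shock elements, inverted repeats of GAA. Of 34 tested members of this list, 12 rose, 0 fell and 32 had a positive fold change. Its median log2 fold change was 1.08, and by line 1.22 in SNU-6624-TO and 1.04 in SNU-6625-TO. The 4-library fit called 28 higher and 1 lower. Hsph1, the HSP110 nucleotide exchange factor that works with HSP70, had 394 and 289 CPM after lenvatinib, against 31.1 and 31.2 CPM in the parental libraries (3.48, SE 0.52, adjusted p = 0.0442 by edgeR). Dnajb1, an HSP40 that feeds substrates to HSP70, had 254 and 213 CPM after lenvatinib, against 66.9 and 58.7 CPM in the parental libraries (1.89, SE 0.15, adjusted p = 0.0323 by edgeR). Cryab, a small heat shock protein that holds unfolded substrates, had 257 and 103 CPM after lenvatinib, against 72.3 and 27.2 CPM in the parental libraries (1.87, SE 0.23, adjusted p = 0.0385 by edgeR). For each of the 3 genes both lenvatinib libraries lay above both parental ones.

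Further rises were those of the HSP90 activators Ahsa1 (1.41) and Ahsa2 (1.55), the J-domain genes Dnajb2 (1.44) and Dnajb4 (1.78), the HSP70 partner Bag3 (1.37), and the factors Hsf1 (1.09) and Hsf2 (1.39) (log2 fold changes). Hspe1, the HSP10 lid of the mitochondrial chaperonin, had 180.4 and 164 CPM after lenvatinib, against 70.7 and 62.1 CPM in the parental libraries (1.37, SE 0.18, adjusted p = 0.0415 by edgeR). Its promoter is shown because it carries a heat shock element: the 250 bases before the Hspe1 start (chr1:55087898-55088147, plus strand, GRCm38.p6, sequence from RefSeq) hold overlapping matches to TTCNNGAANNTTC that begin 89 and 84 bases before the start, and capitals mark the matched bases.
Hspe1 promoter: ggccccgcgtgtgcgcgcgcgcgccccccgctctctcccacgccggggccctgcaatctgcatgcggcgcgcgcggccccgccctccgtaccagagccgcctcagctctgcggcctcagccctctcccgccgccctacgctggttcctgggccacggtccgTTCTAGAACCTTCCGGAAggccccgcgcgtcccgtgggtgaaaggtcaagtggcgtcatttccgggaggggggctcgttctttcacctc
The motif was searched on both strands, in the window that runs from 250 bases before to 50 after each start. It was found in 0.66% of the 27025 genes with a promoter entry. A match describes letters only. Among genes that were not called, the stress-inducible HSP90 gene Hsp90aa1 had 1910 and 1478 CPM after lenvatinib, against 482 and 428 CPM in the parental libraries (1.9, SE 0.38, adjusted p = 0.0628 by edgeR), and the inducible HSP70 gene Hspa1b, which has a near-identical copy, had 744 and 511 CPM after lenvatinib, against 233 and 237 CPM in the parental libraries (1.34, SE 0.48, adjusted p = 0.146 by edgeR). The 4-library fit called both, with edgeR adjusted p = 0.000326 and 0.0017.

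Part of the ATF4 programme rose. ATF4 is translated when eIF2 alpha is phosphorylated, as in amino acid shortage, and its targets restore amino acid supply and tRNA charging. Of 19 tested ATF4 regulators and feedback genes, 4 rose and 0 fell, with a median log2 fold change of 0.86 (15 higher and 1 lower in the 4-library fit). Chac1, an enzyme that degrades glutathione, had 99.1 and 69.1 CPM after lenvatinib, against 15.6 and 9.49 CPM in the parental libraries (2.75, SE 0.41, adjusted p = 0.0437 by edgeR). Ddit3 (CHOP), a transcription factor of prolonged stress, had 161 and 122 CPM after lenvatinib, against 42.2 and 25.4 CPM in the parental libraries (2.09, SE 0.17, adjusted p = 0.0305 by edgeR). The groups did not overlap in either gene. Eif4ebp1, a brake on cap-dependent translation, and Atf5, a factor related to ATF4, rose by 1.7 and 1.62. Atf4 itself had 618 and 521 CPM after lenvatinib, against 349 and 278 CPM in the parental libraries and was not called (0.86, SE 0.25, adjusted p = 0.108 by edgeR), and Trib3, a pseudokinase that feeds back on ATF4, had 272 and 165 CPM after lenvatinib, against 42.8 and 27.3 CPM in the parental libraries (2.64, SE 0.46, adjusted p = 0.0522 by edgeR), just outside the threshold.

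Of the enzymes that charge tRNAs with amino acids, 7 of 20 tested cytosolic synthetase genes were called higher and 0 lower, and the median log2 fold change was 0.93. Aars, the alanyl enzyme, had 445 and 390.4 CPM after lenvatinib, against 153 and 109 CPM in the parental libraries (1.68, SE 0.28, adjusted p = 0.048 by edgeR). Nars, the asparaginyl enzyme, had 430.3 and 356 CPM after lenvatinib, against 199 and 172 CPM in the parental libraries (1.08, SE 0.17, adjusted p = 0.0452 by edgeR). Yars, Rars, Iars, Tars and Mars rose by 0.89 to 1.27 (Yars). Each of these genes was higher after lenvatinib in both lines without overlap, whereas Vars (-0.04), Kars (-0.02) and Qars (-0.34) were near or below 0 and were not called. The 4-library fit called 13 synthetase genes higher and 1 lower.

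Amino acid synthesis genes moved in part. Of 20 tested, 5 rose and 0 fell, and the median of the list was 0.15 (10 higher and 5 lower in the 4-library fit). Asns, which makes asparagine, had 311 and 306 CPM after lenvatinib, against 116 and 78.3 CPM in the parental libraries (1.68, SE 0.28, adjusted p = 0.0494 by edgeR). Phgdh, the entry enzyme of serine synthesis, had 276 and 223 CPM after lenvatinib, against 83.8 and 68.3 CPM in the parental libraries (1.71, SE 0.16, adjusted p = 0.0333 by edgeR). Gpt2, the mitochondrial alanine aminotransferase, had 73.9 and 69.9 CPM after lenvatinib, against 24.5 and 19.3 CPM in the parental libraries (1.72, SE 0.16, adjusted p = 0.0329 by edgeR). The lenvatinib libraries exceeded the parental ones in each case. The proline synthesis genes Pycr1 and Aldh18a1 rose by 1.51 and 0.86. Among 18 tested amino acid transporters, Slc7a5, the large neutral amino acid carrier, rose (181 and 109.6 CPM in the lenvatinib libraries and 55.1 and 46.99 CPM in the parental libraries, 1.48) and Slc36a4, a proline and tryptophan transporter, fell (10.96 and 13.9 CPM in the lenvatinib libraries and 29.5 and 30.9 CPM in the parental libraries, -1.29). Of 17 transporters in the 4-library fit, 8 were called higher and 5 lower.

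The promoters of Chac1, Asns and Aars are shown because these called genes carry an ATF4 response element. The motif searched was TGATGNAA on both strands. The match begins 193 bases before the start in Chac1 (chr2:119350992-119351241, plus strand), 23 in Asns (chr6:7693210-7693459, minus strand) and 112 in Aars (chr8:111033592-111033841, plus strand), all GRCm38.p6 from RefSeq, and capitals mark it.
Chac1 promoter: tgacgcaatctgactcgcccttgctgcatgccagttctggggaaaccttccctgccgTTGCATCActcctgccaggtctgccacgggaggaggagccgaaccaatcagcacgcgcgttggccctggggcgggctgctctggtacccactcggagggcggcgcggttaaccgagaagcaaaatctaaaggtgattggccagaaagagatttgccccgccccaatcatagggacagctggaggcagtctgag
Asns promoter: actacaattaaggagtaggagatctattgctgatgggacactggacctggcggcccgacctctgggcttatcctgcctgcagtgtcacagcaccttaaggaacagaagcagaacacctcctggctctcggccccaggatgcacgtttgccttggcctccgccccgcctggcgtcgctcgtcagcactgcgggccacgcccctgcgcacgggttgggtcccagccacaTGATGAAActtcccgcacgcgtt
Aars promoter: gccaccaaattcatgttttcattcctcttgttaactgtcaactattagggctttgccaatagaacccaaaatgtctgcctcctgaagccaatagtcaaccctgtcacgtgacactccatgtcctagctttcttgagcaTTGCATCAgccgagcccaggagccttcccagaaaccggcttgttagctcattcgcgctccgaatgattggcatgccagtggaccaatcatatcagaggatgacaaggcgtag
The motif was in 5 of the 17 ATF4 regulators and feedback genes with a promoter entry (29.41%). They were Chac1, Fgf21, Nupr1, Trib3 and Vldlr, of which only Chac1 was called. Of all 27025 genes with an entry, 4.51% had it, and of the 231 genes called higher with an entry, 5.19%. In the last 150 bases before the start, it was in 11.76% of the 17 and 2.54% of all. Of 20 synthetase genes 13 had an entry, and 5 of these had the motif. Of 20 amino acid synthesis genes 15 had an entry, and 3 of these had it. No percentage is given for these 2 lists, as many members had no entry.

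All 3 Gadd45 genes, small growth arrest proteins that bind stress kinases and cyclin B kinase, rose. Gadd45a had 185 and 121 CPM after lenvatinib, against 41.5 and 26.2 CPM in the parental libraries (2.18, SE 0.15, adjusted p = 0.0275 by edgeR). Gadd45g had 41 and 52.9 CPM after lenvatinib, against 8.83 and 14.3 CPM in the parental libraries (2.07, SE 0.31, adjusted p = 0.0442 by edgeR), and Gadd45b had 113 and 112 CPM after lenvatinib, against 41.9 and 28.3 CPM in the parental libraries (1.68, SE 0.28, adjusted p = 0.0489 by edgeR). No lenvatinib library overlapped a parental one in this family, and the 4-library fit also called all 3 higher. A separate list of p53 targets leaves out the Gadd45 genes. In that list, 1 of 24 tested rose, the ribonucleotide reductase subunit gene Rrm2b (83.2 and 74.96 CPM in the lenvatinib libraries and 29.4 and 29.1 CPM in the parental libraries), and 2 fell, the TNF receptor family gene Eda2r (27.4 and 22.6 CPM in the lenvatinib libraries and 60.6 and 46.1 CPM in the parental libraries) and the phosphatase gene Ptp4a3 (8.79 and 9.09 CPM in the lenvatinib libraries and 48.04 and 45.6 CPM in the parental libraries). Their log2 fold changes were 1.43, -1.09 and -2.38 (3 higher and 7 lower in the 4-library fit). Chaperones of the endoplasmic reticulum and other unfolded protein response genes had 0 of 30 called in the main fit, a median of 0.24, and 13 higher and 4 lower in the 4-library fit.

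Hmox1 (chr8:75093618-75100593 in GRCm38.p6), heme oxygenase, which breaks down heme to biliverdin, iron and carbon monoxide, had the largest rise of the called genes whose lenvatinib mean reached 5 CPM. It had 766 and 345 CPM after lenvatinib, against 30.6 and 21.8 CPM in the parental libraries (4.38, SE 0.57, adjusted p = 0.0398 by edgeR), and 37.95 and 67.1 CPM in the resistant libraries. The lenvatinib value was higher in SNU-6624-TO than in SNU-6625-TO, and both exceeded every other library of the 2 lines. Of 36 tested NRF2 target and glutathione genes, 2 rose and 0 fell, while 31 had a positive fold change and the median was 1.20; the 4-library fit called 24 higher and 2 lower. The second call was Taldo1, transaldolase of the pentose phosphate pathway, with 780.5 and 715 CPM after lenvatinib, against 295 and 254 CPM in the parental libraries (1.45, SE 0.23, adjusted p = 0.046 by edgeR).

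Other members of this list had large fold changes without passing the threshold, of which 4 are given. Gclc, the catalytic subunit of glutathione synthesis, had 5005 and 5571 CPM after lenvatinib, against 631 and 648 CPM in the parental libraries (3.03, SE 0.81, adjusted p = 0.0931 by edgeR, and adjusted p = 0.000124 in the 4-library fit). Txnrd1, thioredoxin reductase, had 1390 and 1172 CPM after lenvatinib, against 328 and 291 CPM in the parental libraries (2.05, SE 0.4, adjusted p = 0.0606 by edgeR). Blvrb, a biliverdin reductase, had 285 and 332 CPM after lenvatinib, against 34.3 and 28.8 CPM in the parental libraries (3.23, SE 0.73, adjusted p = 0.0719 by edgeR), and Slc7a11, the cystine carrier, had 516 and 484 CPM after lenvatinib, against 163 and 168 CPM in the parental libraries (1.61, SE 0.62, adjusted p = 0.163 by edgeR). In all 4 genes the lenvatinib libraries lay above the parental ones. Nfe2l2, which encodes NRF2, had 334 and 334 CPM after lenvatinib, against 295 and 344 CPM in the parental libraries with overlapping groups (0.08), and the quinone reductase gene Nqo1 had 179 and 264 CPM after lenvatinib, against 144 and 132 CPM in the parental libraries (0.58); neither was called. Alad, an enzyme of heme synthesis, rose (253 and 269 CPM in the lenvatinib libraries and 123 and 103 CPM in the parental libraries, 1.21). The ferritin light chain pseudogene Ftl1-ps1 also rose (1.77), but it is nearly identical to the ferritin gene Ftl1, so its reads are uncertain. Ftl1 had a mean of 8269 CPM in the lenvatinib libraries, against 2267 CPM in the parental libraries. Ftl1 was not called (1.87, SE 0.34, adjusted p = 0.0559 by edgeR). The ferritin gene Fth1 was not called either (1.89, SE 0.54, adjusted p = 0.104 by edgeR).

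Proteasome subunit genes had 1 of 32 called higher, 0 lower, and 31 with a positive fold change (median 0.45; 21 higher and 0 lower in the 4-library fit). Psmb3, a core subunit, had 88.95 and 86.2 CPM after lenvatinib, against 49.9 and 44.7 CPM in the parental libraries (0.89, SE 0.13, adjusted p = 0.0443 by edgeR). Of 37 tested autophagy genes, 3 rose and 1 fell (median 0.51; 25 higher and 2 lower in the 4-library fit). The rises were those of Atg12 (1.02) and Atg16l1 (0.79), parts of the machinery that lipidates LC3, and Wipi2 (1.02), which recruits it. The fall was that of Atg9b, a lipid scramblase, which had 172 and 173 CPM after lenvatinib, against 1316 and 1330 CPM in the parental libraries (-2.94, SE 0.41, adjusted p = 0.0422 by edgeR). Of 28 tested lysosomal genes, 1 rose, the MiT family factor gene Mitf (3.56 and 3.502 CPM in the lenvatinib libraries and 0.201 and 0.302 CPM in the parental libraries; 3.82, SE 0.44, adjusted p = 0.0371 by edgeR), and the 4-library fit called 17 of these genes higher and 6 lower.

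**Figure D2:**
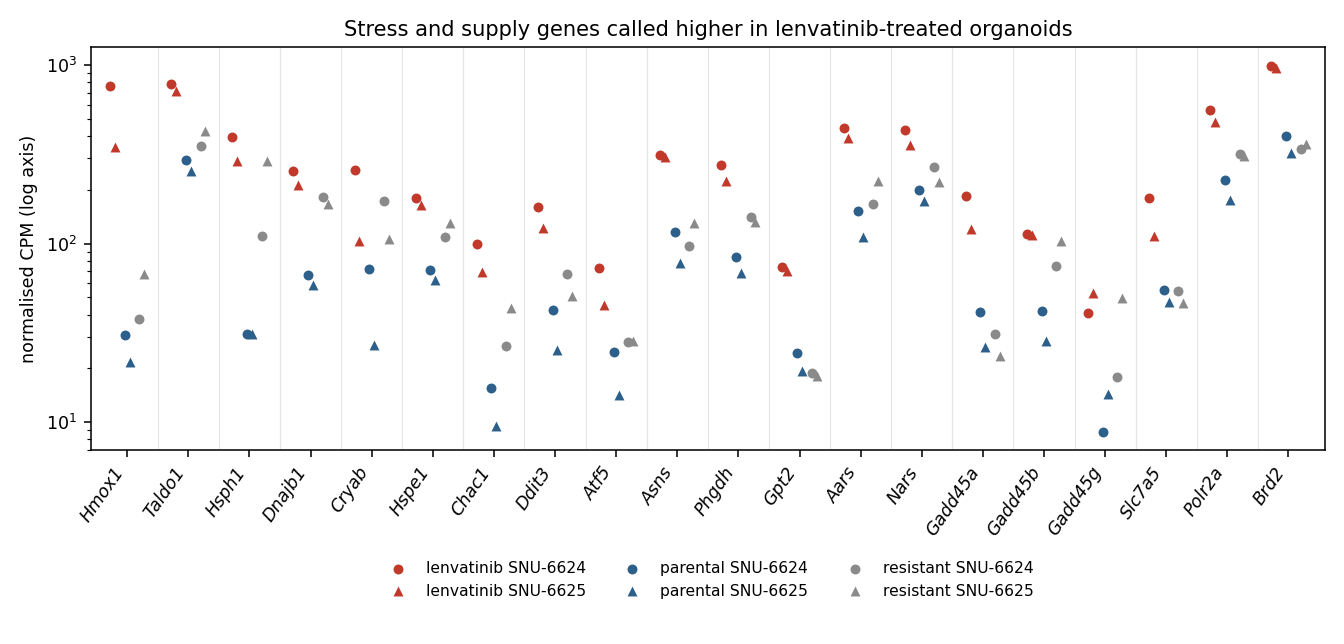
Genes that rose, by library. Each point is the normalised CPM of 1 library on a log axis, lenvatinib to the left of parental and resistant within each gene, with the 2 lines drawn as different symbols. In each of the genes shown both lenvatinib points lie above both parental points, and the gap is widest for Hmox1 and Hsph1, with log2 fold changes of 4.38 and 3.48.

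Polr2a, the largest subunit of RNA polymerase II, had 562 and 476 CPM after lenvatinib, against 226 and 176 CPM in the parental libraries (1.37, SE 0.19, adjusted p = 0.0422 by edgeR), and Brd2, a reader of acetylated histones, had 989.7 and 964 CPM after lenvatinib, against 400.1 and 322 CPM in the parental libraries (1.44, SE 0.22, adjusted p = 0.0446 by edgeR). Both were higher in every lenvatinib library than in every parental one. Ribosome biogenesis genes had 2 of 38 called higher, the nucleolar genes Nop14 (1.08) and Heatr1 (0.97), 0 called lower and a median of 0.36 (20 higher and 2 lower in the 4-library fit). Of 78 tested cytosolic ribosomal protein genes 0 were called, and 2 higher and 25 lower in the 4-library fit, with a median of -0.17. Mitochondrial ribosomal proteins had 1 of 78 called higher (Mrpl2, 0.99) and 1 lower (Mrpl54, -1.25), and 25 higher and 8 lower in the 4-library fit. Of 344 tested zinc finger genes, mostly of the KRAB family of repressors, 4 rose and 4 fell, with a median of 0.26, while the 4-library fit called 95 of 338 higher and 41 lower. The replication-type histone list had 2 of 42 called higher, H2ac18 (2.61) and H2ac19 (2.59), which are near-identical copies whose counts were almost equal, so they may be 1 signal. In the 4-library fit 11 of 38 such histone genes were higher and 1 lower.

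Cell division genes had lower values after lenvatinib, though few passed the test with the resistant libraries in the fit. FOXM1 switches on the genes of mitosis late in the cycle, while E2F factors act at its start. Foxm1 (chr6:128362994-128375886 in GRCm38.p6) had 0.534 and 0.404 CPM after lenvatinib, against 28.6 and 30.8 CPM in the parental libraries (-6.07, SE 0.81, adjusted p = 0.0415 by edgeR). Of 47 tested spindle, kinetochore and cytokinesis genes, 4 were called lower and 0 higher, and the 4-library fit called 46 lower and 1 higher. The median of the list was -3.29 (-3.39 and -3.29 by line). Kif23, a kinesin of the midbody, had 6.54 and 6.78 CPM after lenvatinib, against 78.6 and 67.4 CPM in the parental libraries (-3.43, SE 0.38, adjusted p = 0.0371 by edgeR). Kif2c, a kinesin that depolymerises microtubules at centromeres, had 0.293 and 0.353 CPM after lenvatinib, against 15.4 and 16.9 CPM in the parental libraries (-5.64, SE 0.65, adjusted p = 0.0371 by edgeR). Each was lower in both lenvatinib libraries by a wide margin. Cit, citron kinase of cytokinesis (-5.43), and Birc5, survivin of the chromosomal passenger complex (-2.85), also fell. Bub3, a checkpoint protein, was the 1 member with a positive value (104 and 98.8 CPM in the lenvatinib libraries and 74.1 and 68.6 CPM in the parental libraries; 0.51, SE 0.13, adjusted p = 0.0887 by edgeR).

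The promoter of Kif23 is shown for its CCAAT box, a site of NF-Y that is common in promoters of mitotic genes (chr9:61946800-61947049, minus strand, GRCm38.p6, RefSeq). The match to CCAAT, on the opposite strand, begins 7 bases before the start and is in capitals.
Kif23 promoter: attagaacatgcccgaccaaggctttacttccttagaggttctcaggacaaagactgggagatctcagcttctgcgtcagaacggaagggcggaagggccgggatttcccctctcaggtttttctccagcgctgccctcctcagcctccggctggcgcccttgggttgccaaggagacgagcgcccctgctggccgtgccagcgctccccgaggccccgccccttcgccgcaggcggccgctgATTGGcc
CCAAT on either strand was in 30 of the 42 spindle genes with an entry (71.43%) and in 41.06% of all 27025 genes with an entry. The letters TTTGAA are the core of the cell cycle homology region bound by the DREAM complex. They were in 28 of 42 (66.67%) and in 20.23% of all. In the last 150 bases before the start, CCAAT was in 61.9% of the 42 and 27.67% of all. TTTGAA was there in 23.81% of the 42 and 10.48% of all. Of all genes called lower with an entry, 41.05% had CCAAT and 16.34% had TTTGAA in the whole window.

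Several proliferation genes had no count at all after lenvatinib. Pclaf, a partner of the replication clamp PCNA, had 0 counts in both lenvatinib libraries and 1700 and 1618 counts in the parental libraries. With 3 counts per library taken as the floor, its level was at least 598-fold lower, although it was not called (edgeR adjusted p = 0.122, and 7.65e-05 in the 4-library fit). The resistant libraries had 10.03 and 0 CPM. Likewise Pimreg, a regulator of the metaphase to anaphase step, Pif1, a DNA helicase, and Neil3, a DNA glycosylase, had 0 counts in both lenvatinib libraries, which put them at least 265-fold, 243-fold and 213-fold lower. None of these 3 was called in the main fit.

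Genes of mitotic entry and exit had 3 of 26 called lower and 0 higher (median -2.25; 19 lower and 1 higher in the 4-library fit): Foxm1, the cyclin B kinase phosphatase gene Cdc25b (23.2 and 22.3 CPM in the lenvatinib libraries and 83.3 and 69.3 CPM in the parental libraries; -1.73) and the G2 regulator gene Gtse1 (8.55 and 6.65 CPM in the lenvatinib libraries and 36.99 and 32.4 CPM in the parental libraries; -2.2). Of 38 tested replication origin and fork genes, 0 were called in either direction in the main fit, and 28 lower and 1 higher in the 4-library fit, with a median of -1.28. Of the 2 with the smallest p, Mcm7, a subunit of the replicative helicase, had 20.3 and 14.7 CPM after lenvatinib, against 63.6 and 58.8 CPM in the parental libraries (-1.86, SE 0.46, adjusted p = 0.0812 by edgeR), and Timeless, of the fork protection complex, had 1.86 and 1.72 CPM after lenvatinib, against 14.6 and 12.6 CPM in the parental libraries (-2.92, SE 0.76, adjusted p = 0.0886 by edgeR). Of 23 E2F and G1/S regulators 1 fell, the factor gene E2f2 (-5.62), and 0 rose (13 lower and 1 higher in the 4-library fit). Of 17 genes of nucleotide supply 1 fell, the thymidine kinase gene Tk1 (-4.73), and 0 rose (9 lower and 5 higher). Of 12 D cyclin and CDK inhibitor genes 1 fell, the D cyclin kinase gene Cdk6 (-1.0), and 0 rose (6 lower and 1 higher). Each of these 3 lists thus had a single call, with 4.08% called lower over all genes. The E2F site TTTCGCG was in 8 of 31 replication genes with a promoter entry (25.81%), against 0.97% of all genes with an entry. Homologous recombination and Fanconi genes had 0 of 30 called in the main fit, and 19 lower and 2 higher in the 4-library fit. In bulk RNA, fewer cells of a type and less RNA per cell cannot be told apart, and this holds for the share of dividing cells and for every cell type gene below.

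Part of the sterol and fatty acid synthesis genes fell. SREBP2 switches on cholesterol synthesis when sterol in the endoplasmic reticulum runs low, and SREBP1 does so for fatty acids. Of 21 tested cholesterol synthesis genes, 4 fell and 0 rose; 20 had a negative fold change, and the median was -1.75 (-1.67 and -1.81 by line). The 4-library fit called 20 lower and 1 higher. Hmgcs1, which makes HMG-CoA, had 62.4 and 63.1 CPM after lenvatinib, against 478 and 482 CPM in the parental libraries (-2.94, SE 0.49, adjusted p = 0.0488 by edgeR). Fdft1, squalene synthase, had 47.6 and 45.7 CPM after lenvatinib, against 229 and 236 CPM in the parental libraries (-2.32, SE 0.28, adjusted p = 0.0371 by edgeR). The 2 lines gave almost the same values on each side and the groups were far apart. Msmo1 (-1.59) and Sc5d (-1.03), later steps of the pathway, the sterol carrier gene Stard4 (-2.34) and Srebf2, which encodes SREBP2 (-1.08), also fell. The sterol carrier and SREBP2 genes belong to the list of sterol uptake, sensing and efflux, in which 3 of 21 fell and 1 rose (10 of 20 lower and 4 higher in the 4-library fit).

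The Hmgcs1 promoter is shown for a sterol regulatory element (chr13:119690101-119690350, plus strand, GRCm38.p6, RefSeq), a match to CACCCCAC on either strand, in capitals, that begins 136 bases before the start. This motif was in 3.3% of all genes with an entry. Of 21 cholesterol synthesis genes 16 had an entry, and 2 of these, Acat2 and Hmgcs1, had the motif. No percentage is given for this list, as several members had no entry.
Hmgcs1 promoter: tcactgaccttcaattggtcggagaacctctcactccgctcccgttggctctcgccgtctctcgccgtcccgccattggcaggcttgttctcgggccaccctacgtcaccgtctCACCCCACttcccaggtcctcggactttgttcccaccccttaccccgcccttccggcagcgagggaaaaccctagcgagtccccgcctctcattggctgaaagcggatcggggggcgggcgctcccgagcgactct
Of 21 tested fatty acid synthesis and desaturation genes, 4 fell and 0 rose (median -1.23; 17 lower and 1 higher in the 4-library fit). Scd1, the desaturase that makes oleate, had 2.15 and 0.438 CPM after lenvatinib, against 86.05 and 23.3 CPM in the parental libraries (-5.6, SE 0.61, adjusted p = 0.037 by edgeR). Elovl6, an elongase, had 12.5 and 9.19 CPM after lenvatinib, against 83.3 and 86.02 CPM in the parental libraries (-3.01, SE 0.38, adjusted p = 0.0388 by edgeR), and Srebf1 had 77.6 and 80.4 CPM after lenvatinib, against 180.2 and 205 CPM in the parental libraries (-1.29, SE 0.19, adjusted p = 0.0429 by edgeR). All were lower in both lines. The 1 rise in the sterol uptake list was that of Osbp2, an oxysterol binding protein relative, which had 10.3 and 5.13 CPM after lenvatinib, against 1.12 and 0.524 CPM in the parental libraries (3.23, SE 0.42, adjusted p = 0.0398 by edgeR). Of 29 triglyceride, lipid droplet and phospholipid genes, 1 rose, the triglyceride synthase gene Dgat1 (1.08), and 1 fell, the phosphatidate phosphatase gene Lpin1 (-1.17), with 10 higher and 11 lower in the 4-library fit. Of 26 fatty acid oxidation and PPAR genes, 2 fell, the adipogenic receptor gene Pparg (-1.17) and the fatty acid dehydrogenase gene Acadl (-1.17), and 0 rose (15 of 25 lower and 3 higher in the 4-library fit).

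The labelled tissue was checked against its markers. Albumin (Alb) and the hepatocyte genes Cps1, Fgb, Serpina1a and G6pc had 0 counts in all 6 libraries of the 2 lines, and the 11 hepatocyte markers summed to 0.866 and 0.956 CPM after lenvatinib, against 1.74 and 6.67 CPM in parental and 0.871 and 0.557 CPM in resistant libraries. Other hepatocyte genes had some counts: the transthyretin gene Ttr had 0 counts in both lenvatinib libraries and 4 and 71 in the parental libraries, and the urea cycle gene Otc had 0 in both lenvatinib libraries and 5 and 83 in the parental libraries. Albumin was thus not detected in organoids labelled as hepatocellular carcinoma, and the other hepatocyte markers were at 0 or low. The 7 biliary markers summed to 1456 and 1870 CPM after lenvatinib, against 5722 and 5817 CPM in parental and 10680 and 8285 CPM in resistant libraries.

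Hnf4a (chr2:163506811-163572907 in GRCm38.p6), a nuclear receptor that maintains liver and gut epithelium, had 5.44 and 10 CPM after lenvatinib, against 91.97 and 147 CPM in the parental libraries (-3.97, SE 0.21, adjusted p = 0.0275 by edgeR). Nr1h4, the bile acid receptor FXR, had 0 and 0.185 CPM after lenvatinib, against 0.335 and 3.63 CPM in the parental libraries (-4.81, SE 0.77, adjusted p = 0.0467 by edgeR). Nr1h4 was weakly expressed throughout, while Hnf4a was well expressed in the parental and resistant libraries. In all, 4 of 23 tested liver and gut transcription factors fell and 0 rose, among them also the epithelial ETS factor gene Ehf (-1.14); the 4-library fit called 13 of 22 lower and 2 higher. Not all such factors were lower: Gata6 (27.7 and 31.3 CPM in the lenvatinib libraries and 27.1 and 30.4 CPM in the parental libraries), Onecut2 (202 and 218 CPM in the lenvatinib libraries and 173 and 229 CPM in the parental libraries) and Klf5 (155 and 117 CPM in the lenvatinib libraries and 149 and 128 CPM in the parental libraries), factors of foregut and gut epithelium, had overlapping groups and were not called. Sox9, a factor of bile duct and progenitor cells, had 53.8 and 57.7 CPM after lenvatinib, against 32.7 and 45.2 CPM in the parental libraries and was not called either (0.56, SE 0.33, adjusted p = 0.308 by edgeR).

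Of 23 tested biliary and progenitor genes, 6 fell and 0 rose (median -1.28; 18 lower and 2 higher in the 4-library fit). Krt19, the keratin that defines bile duct cells, had 259.8 and 370.5 CPM after lenvatinib, against 2940 and 3041 CPM in the parental libraries (-3.25, SE 0.38, adjusted p = 0.0371 by edgeR). Tspan8, a tetraspanin of the cell surface, had 57.8 and 61.1 CPM after lenvatinib, against 476 and 564 CPM in the parental libraries (-3.12, SE 0.22, adjusted p = 0.0275 by edgeR). Spp1, osteopontin, and Pkhd1, the cilium protein of polycystic kidney and liver disease, fell by 3.1 and 1.87. Of 28 intestinal epithelium genes 21 were tested, of which 4 fell and 0 rose (median -3.19, or -2.91 with genes at 0 set to their bound; 18 of 20 lower in the 4-library fit). Cdh17, the liver-intestine cadherin, had 16.7 and 42.8 CPM after lenvatinib, against 531 and 767 CPM in the parental libraries (-4.52, SE 0.46, adjusted p = 0.0356 by edgeR). Vil1, villin of the brush border, had 11.3 and 20.3 CPM after lenvatinib, against 213 and 354 CPM in the parental libraries (-4.17, SE 0.54, adjusted p = 0.0401 by edgeR), and Krt20 had 26.2 and 41.4 CPM after lenvatinib, against 185 and 303 CPM in the parental libraries (-2.84, SE 0.22, adjusted p = 0.0305 by edgeR). The lenvatinib libraries stood below the parental ones in all of these called genes. Cdx2, a master factor of intestinal identity, had 42.3 and 35.7 CPM after lenvatinib, against 99 and 132 CPM in the parental libraries and just missed the threshold (-1.58, SE 0.29, adjusted p = 0.0546 by edgeR).

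Of 25 mucin and goblet cell genes 20 were tested, with 6 called lower and 0 higher (median -3.64, or -3.14 with genes at 0 set to their bound; 15 lower and 1 higher in the 4-library fit). Muc4, a membrane mucin that binds the receptor ERBB2, had 2.03 and 3.64 CPM after lenvatinib, against 115 and 216 CPM in the parental libraries (-5.85, SE 0.28, adjusted p = 0.0275 by edgeR). Muc13, another membrane mucin of gut, had 15.7 and 71.3 CPM after lenvatinib, against 452 and 856 CPM in the parental libraries (-4.09, SE 0.65, adjusted p = 0.0467 by edgeR). Fcgbp, a protein of the mucus gel, had 44.3 and 33.3 CPM after lenvatinib, against 305 and 668 CPM in the parental libraries (-3.67, SE 0.58, adjusted p = 0.0464 by edgeR). All parental values exceeded all lenvatinib values in these 3 genes. Agr2, a disulfide isomerase for mucins, also fell (0 and 0.286 CPM in the lenvatinib libraries and 1.82 and 32.9 CPM in the parental libraries; -7.25), and its resistant libraries were low as well (0 and 0.464 CPM). The gel-forming mucin gene Muc2, the defining product of goblet cells, went the other way without being called: 6.08 and 8.84 CPM in the lenvatinib libraries and 1.54 and 1.59 CPM in the parental libraries (2.19, SE 0.5, adjusted p = 0.0739 by edgeR, and adjusted p = 0.00148 in the 4-library fit). Atoh1, the factor that specifies goblet cells, had 0 counts in the 4 libraries.

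Of 31 stem cell and Wnt target genes 20 were tested, with 4 called lower and 0 higher (10 of 18 lower and 2 higher in the 4-library fit). Lgr5, the R-spondin receptor that marks gut stem cells and dividing bile duct organoids, had 0.689 and 0.976 CPM after lenvatinib, against 16.9 and 72.2 CPM in the parental libraries (-5.48, SE 0.51, adjusted p = 0.0333 by edgeR). The parental level was higher in SNU-6625-TO than in SNU-6624-TO, and both lenvatinib libraries were near 0. Axin2, a direct target of beta-catenin, had 15.1 and 23.7 CPM after lenvatinib, against 44.7 and 59.97 CPM in the parental libraries (-1.46, SE 0.18, adjusted p = 0.0388 by edgeR), and the factor gene Tcf7 also fell (-1.99). Ly6a (Sca-1), a marker of regenerating epithelium in the list of YAP targets, had 279.5 and 269.5 CPM after lenvatinib, against 2075 and 1856 CPM in the parental libraries (-2.83, SE 0.32, adjusted p = 0.0371 by edgeR), and Msln, mesothelin, had 224 and 253 CPM after lenvatinib, against 1052 and 1183 CPM in the parental libraries (-2.23, SE 0.36, adjusted p = 0.0466 by edgeR). Both were lower in each line, with little difference between the lines. They were the only called members among 21 tested genes of that list, and the 4-library fit called 13 of 20 lower and 3 higher. Of 19 tested Notch genes 0 were called (7 of 16 lower and 1 higher in the 4-library fit), and the ligand gene Jag2 had 104 and 137 CPM after lenvatinib, against 237 and 213 CPM in the parental libraries (-0.91, SE 0.2, adjusted p = 0.0695 by edgeR).

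**Figure D3:**
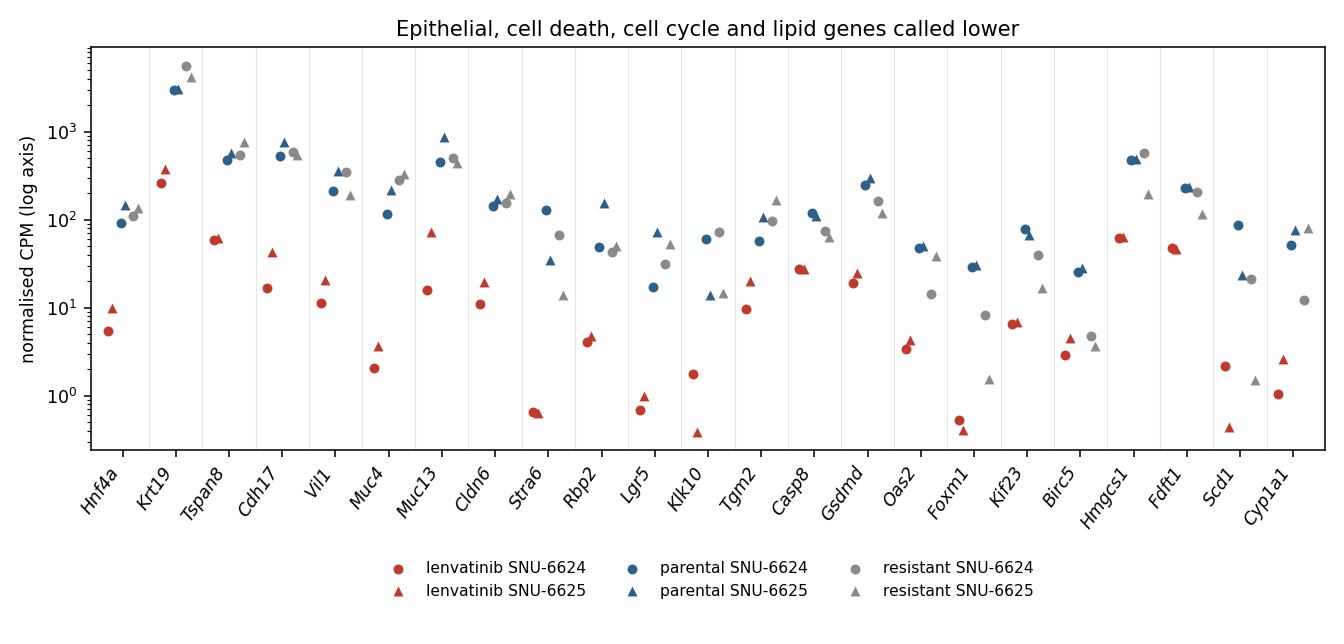
Genes that fell, by library. Each point is the normalised CPM of 1 library on a log axis, lenvatinib to the left of parental and resistant within each gene, with the 2 lines drawn as different symbols. In each of the genes shown both lenvatinib points lie below both parental points; the resistant points of Foxm1 and Birc5 lie between or near the lenvatinib ones, and those of Hnf4a, Krt19 and Muc4 near or above the parental ones.

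Of 22 tested tight junction genes 4 were called lower and 0 higher, while the 4-library fit called 10 of 21 lower and 4 higher. The 4 were Cldn6, a claudin of embryonic and tumour epithelium (10.98 and 19.3 CPM in the lenvatinib libraries and 144 and 169 CPM in the parental libraries; -3.42, SE 0.22, adjusted p = 0.0275 by edgeR), the pore-forming claudin gene Cldn2 (-2.3), Cldn8 (-2.35) and the scaffold gene Tjp3 (-1.75). Of 19 adherens junction and desmosome genes 1 fell, the desmocollin gene Dsc2 (-1.34), and 0 rose (13 lower and 1 higher in the 4-library fit). Of 31 tested gap junction and ion channel genes, 4 fell and 0 rose, among them the glycerol channel gene Aqp3 (0.241 and 0.286 CPM in the lenvatinib libraries and 16.7 and 5.86 CPM in the parental libraries; -5.33) and the connexin gene Gjb1 (14.04 and 28.4 CPM in the lenvatinib libraries and 46.6 and 108 CPM in the parental libraries; -1.83); the 4-library fit called 23 lower and 1 higher. Some called falls of surface and calcium-binding proteins lay in no list. Cav1, caveolin, which coats plasma membrane pits, had 21.4 and 38.2 CPM after lenvatinib, against 544 and 623 CPM in the parental libraries (-4.35, SE 0.26, adjusted p = 0.0275 by edgeR). Ly6c1, a GPI-anchored surface protein, had 20.1 and 17.8 CPM after lenvatinib, against 615 and 789.9 CPM in the parental libraries (-5.26, SE 0.72, adjusted p = 0.0418 by edgeR). S100a6, a calcium-binding protein, had 109 and 146 CPM after lenvatinib, against 834 and 795 CPM in the parental libraries (-2.67, SE 0.33, adjusted p = 0.0385 by edgeR). None of these genes showed overlap between the groups. Slc39a4, the zinc importer of gut epithelium, fell to 7.75 and 6.63 CPM after lenvatinib, against 277 and 123 CPM in the parental libraries (-4.71, SE 0.34, adjusted p = 0.0275 by edgeR). Unlike those genes, Slc39a4 belongs to a list, that of metallothioneins and zinc transport. In that list 1 of 8 tested genes fell and 0 rose (3 lower and 2 higher in the 4-library fit).

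Of 31 squamous and cornified envelope genes 25 were tested, with 7 called lower and 0 higher (median -2.62; by line -3.14 and -1.69; 17 of 24 lower in the 4-library fit). Tgm2, a transglutaminase that cross-links protein, had 9.54 and 20.2 CPM after lenvatinib, against 56.8 and 108 CPM in the parental libraries (-2.5, SE 0.16, adjusted p = 0.0275 by edgeR). Sprr1a, a small proline-rich envelope protein, had 126 and 105 CPM after lenvatinib, against 546 and 325 CPM in the parental libraries (-1.88, SE 0.26, adjusted p = 0.0419 by edgeR) and 1512 and 1363 CPM in the resistant libraries. Il1rn, the antagonist of the interleukin 1 receptor, had 95.04 and 67.2 CPM after lenvatinib, against 508 and 494 CPM in the parental libraries (-2.62, SE 0.42, adjusted p = 0.0467 by edgeR). Each was lowest in the lenvatinib libraries. The keratin genes Krt15 (-5.43) and Krt80 (-2.02), the transglutaminase gene Tgm1 (-3.05) and Ivl, involucrin (-1.45), also fell. Secreted proteases and their inhibitors had 6 of 27 called lower and 0 higher (14 of 26 lower and 4 higher in the 4-library fit). Klk10, a kallikrein, had 1.77 and 0.387 CPM after lenvatinib, against 60.4 and 13.9 CPM in the parental libraries (-5.13, SE 0.19, adjusted p = 0.0275 by edgeR), with SNU-6624-TO above SNU-6625-TO in both groups, and Serpinb1a, an inhibitor of neutrophil proteases, had 10.02 and 14.9 CPM after lenvatinib, against 204 and 336 CPM in the parental libraries (-4.44, SE 0.51, adjusted p = 0.0371 by edgeR).

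Genes of retinoid handling had 5 of 23 called lower and 0 higher (median -1.44; 13 lower and 1 higher in the 4-library fit). Vitamin A is taken up by STRA6, bound by cellular retinol binding proteins and esterified by LRAT. Stra6 had 0.654 and 0.6397 CPM after lenvatinib, against 127 and 34.98 CPM in the parental libraries (-6.63, SE 0.66, adjusted p = 0.0356 by edgeR). Rbp2, the form of gut epithelium, had 4.04 and 4.798 CPM after lenvatinib, against 48.9 and 152 CPM in the parental libraries (-4.35, SE 0.47, adjusted p = 0.0361 by edgeR). Both genes were low after lenvatinib and far higher in every parental library. Lrat had 0 counts in both lenvatinib libraries and 2.74 and 1.19 CPM in the parental libraries, at least 38.5-fold lower with 3 counts per library as the floor (edgeR adjusted p = 0.045).

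Enzymes of drug and xenobiotic metabolism fell in part. Of 93 cytochrome P450 genes 39 were tested, of which 6 fell and 0 rose (median -1.73; 18 of 36 lower and 5 higher in the 4-library fit). Cyp1a1, the classical target of the aryl hydrocarbon receptor, had 1.05 and 2.63 CPM after lenvatinib, against 51.2 and 76.03 CPM in the parental libraries (-5.32, SE 0.65, adjusted p = 0.0378 by edgeR). Cyp1b1, another target of that receptor, had 102 and 91.5 CPM after lenvatinib, against 482 and 484 CPM in the parental libraries (-2.33, SE 0.23, adjusted p = 0.0356 by edgeR), and Cyp2s1 had 50.5 and 46.1 CPM after lenvatinib, against 426 and 434 CPM in the parental libraries (-3.17, SE 0.43, adjusted p = 0.0415 by edgeR). All 3 were clearly lower in both lines. Cyp3a13 fell (-1.92), and Cyp2d9 and Cyp2d34 also fell, but these are near-identical copies that may share reads. Among 9 tested carboxylesterases, which hydrolyse ester drugs, 2 fell (Ces2f, -4.79, and Ces2g, -2.74) and 1 rose, Ces1f (7.18 and 5.45 CPM in the lenvatinib libraries and 0.837 and 0.806 CPM in the parental libraries; 2.92, SE 0.37, adjusted p = 0.0397 by edgeR); the 4-library fit called 4 of 8 lower and 1 higher. Of 28 tested ABC transporter genes, 12 had a positive fold change, 0 rose and 4 fell, and the 4-library fit called 8 of 26 higher and 10 lower. Among the falls were Abcb1a, a drug efflux pump (16.2 and 53.7 CPM in the lenvatinib libraries and 42.5 and 245 CPM in the parental libraries; -1.81), whose groups overlap across lines, and Abcc5 (-1.57). Of 41 tested conjugating enzymes 1 rose, the glutathione transferase gene Gstm4 (1.24), and 2 fell, the sulfotransferase genes Sult1a1 (-2.52) and Sult1c2 (-5.12), with 9 of 39 higher and 16 lower in the 4-library fit. Of 226 tested solute carriers, 5 rose and 12 fell, against 55 of 222 higher and 83 lower in the 4-library fit.

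No list of innate immune genes had a called rise. Over all genes tested 1.7% were called higher and 4.08% lower, so the absence of rises is near the general share. Interferon response genes had 8 of 44 called lower and 0 higher (median -1.14, and by line -1.41 in SNU-6624-TO and -0.69 in SNU-6625-TO; 26 of 42 lower and 1 higher in the 4-library fit). Oas2, which makes the second messenger that activates RNase L, had 3.39 and 4.22 CPM after lenvatinib, against 47.5 and 50.2 CPM in the parental libraries (-3.71, SE 0.41, adjusted p = 0.0371 by edgeR). Samd9l, an antiviral factor, had 31.3 and 29.3 CPM after lenvatinib, against 314 and 226 CPM in the parental libraries (-3.15, SE 0.25, adjusted p = 0.0305 by edgeR). Irf7, a transcription factor of the pathway, had 42.1 and 37.98 CPM after lenvatinib, against 115 and 83.1 CPM in the parental libraries and also fell (-1.29). Lenvatinib libraries were below parental ones in each. Other classical members were low and mixed: Ifit1 had 1.08 and 5.13 CPM after lenvatinib, against 5.69 and 4.37 CPM in the parental libraries with overlap (-1.04), and Rsad2 had 1.95 and 9.33 CPM after lenvatinib, against 2.39 and 3.71 CPM in the parental libraries (0.54); neither was called.

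Oas1a, a relative of Oas2, had 8.48 and 3.79 CPM after lenvatinib, against 22.5 and 15.2 CPM in the parental libraries (-1.71, SE 0.26, adjusted p = 0.0446 by edgeR). Its promoter is shown for overlapping matches to the interferon response element GAAANNGAAA, searched on both strands (chr5:120907526-120907775, minus strand, GRCm38.p6, RefSeq). The matches, in capitals, begin 20 and 14 bases before the start.
Oas1a promoter: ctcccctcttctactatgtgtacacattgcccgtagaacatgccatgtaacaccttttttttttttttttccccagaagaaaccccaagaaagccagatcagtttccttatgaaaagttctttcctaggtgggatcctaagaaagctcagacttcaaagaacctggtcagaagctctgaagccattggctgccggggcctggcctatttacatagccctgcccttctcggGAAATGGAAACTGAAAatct
This motif was in 3.99% of all genes with an entry and in 4.86% of the genes called lower with an entry. Of 44 interferon response genes 32 had an entry, and 18 of these had the motif. No percentage is given for this list, as many members had no entry.

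NF-kB chemokine and feedback genes had 5 of 31 called lower and 0 higher (15 of 30 lower and 2 higher in the 4-library fit). Tnfaip3 (A20), which ends NF-kB signalling, had 21.3 and 23.5 CPM after lenvatinib, against 94.5 and 85.2 CPM in the parental libraries (-2.02, SE 0.28, adjusted p = 0.0422 by edgeR). The neutrophil chemokine genes Cxcl5 (1.86 and 6.53 CPM in the lenvatinib libraries and 13.3 and 26.3 CPM in the parental libraries; -2.47) and Cxcl2 (0.396 and 0.572 CPM in the lenvatinib libraries and 1.92 and 3.63 CPM in the parental libraries; -2.46), the cytokine gene Tnf (-1.61) and the apoptosis inhibitor gene Birc3 (-2.13) also fell. Of 33 acute phase, antimicrobial and complement genes 24 were tested, of which 6 fell and 0 rose (median -2.99, or -2.74 with genes at 0 set to their bound; 15 of 22 lower and 1 higher in the 4-library fit). Duox2, an oxidase of mucosal defence, had 0.241 and 0.421 CPM after lenvatinib, against 8.42 and 24.04 CPM in the parental libraries (-5.52, SE 0.53, adjusted p = 0.0338 by edgeR), and Pigr, which carries IgA across epithelium, had 6.799 and 8.64 CPM after lenvatinib, against 41.95 and 92.7 CPM in the parental libraries (-3.05, SE 0.31, adjusted p = 0.0356 by edgeR). Both were lower in each line. Cd55, a complement inhibitor, also fell (-1.82).

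Of 16 inflammasome and pyroptosis genes 10 were tested, of which 2 fell and 0 rose (5 of 9 lower and 0 higher in the 4-library fit). Gsdmd, the pore-forming protein of pyroptosis, had 19.2 and 24.9 CPM after lenvatinib, against 245 and 299.5 CPM in the parental libraries (-3.63, SE 0.29, adjusted p = 0.0307 by edgeR). In the list of apoptosis genes, Casp8 (chr1:58795233-58847503 in GRCm38.p6), the caspase of death receptors, had 27.8 and 27.2 CPM after lenvatinib, against 117 and 109 CPM in the parental libraries (-2.04, SE 0.14, adjusted p = 0.0275 by edgeR). The groups were far apart in both lines for both genes. Among 27 tested BCL2 family and apoptosis genes, 3 fell (Casp8, Birc3 and the BCL2 relative gene Bcl2l14, -3.46) and 1 rose, Diablo, which releases caspases from their inhibitors (75.4 and 70.9 CPM in the lenvatinib libraries and 38.3 and 37.1 CPM in the parental libraries; 0.95); the 4-library fit called 13 lower and 4 higher. The NLR family gene Naip2, a sensor of bacterial protein, was the other fall of the inflammasome list (-1.1), though its near-identical relatives may share its reads.

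In energy metabolism, glycolysis had 0 of 26 called, and 14 lower and 0 higher in the 4-library fit. Hypoxia targets had 0 of 20 called, and 7 lower and 6 higher in the 4-library fit. Pgk1, a glycolytic kinase, had 839 and 693 CPM after lenvatinib, against 1976 and 1713 CPM in the parental libraries (-1.27, SE 0.29, adjusted p = 0.0717 by edgeR). Nuclear genes of the respiratory chain had 0 of 77 called (33 lower and 5 higher in the 4-library fit). Of the 13 mitochondrially encoded genes, ND3 fell (65.9 and 98.01 CPM in the lenvatinib libraries and 306 and 265 CPM in the parental libraries; -1.85) and 12 of 13 had a negative fold change (9 lower and 0 higher in the 4-library fit). Of 19 TCA cycle genes 1 fell, Idh1, the cytosolic isocitrate dehydrogenase (-1.82), and 0 rose (7 lower and 1 higher in the 4-library fit). Of 12 gluconeogenesis and glycogen genes 1 fell, Pcx, pyruvate carboxylase (-1.36), and 0 rose (4 lower and 3 higher). Of 18 clock genes 1 rose and 1 fell (6 higher and 4 lower): the output factor gene Dbp fell (11.4 and 15.2 CPM in the lenvatinib libraries and 38.3 and 42.8 CPM in the parental libraries; -1.61, SE 0.25, adjusted p = 0.0446 by edgeR) while the repressor gene Ciart rose (28.2 and 23.1 CPM in the lenvatinib libraries and 10.1 and 7.31 CPM in the parental libraries; 1.57, SE 0.22, adjusted p = 0.0422 by edgeR). The resistant libraries had 2.58 and 2.06 CPM of Dbp and 3.401 and 2.21 CPM of Ciart, below both other groups in each case.

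**Figure D4:**
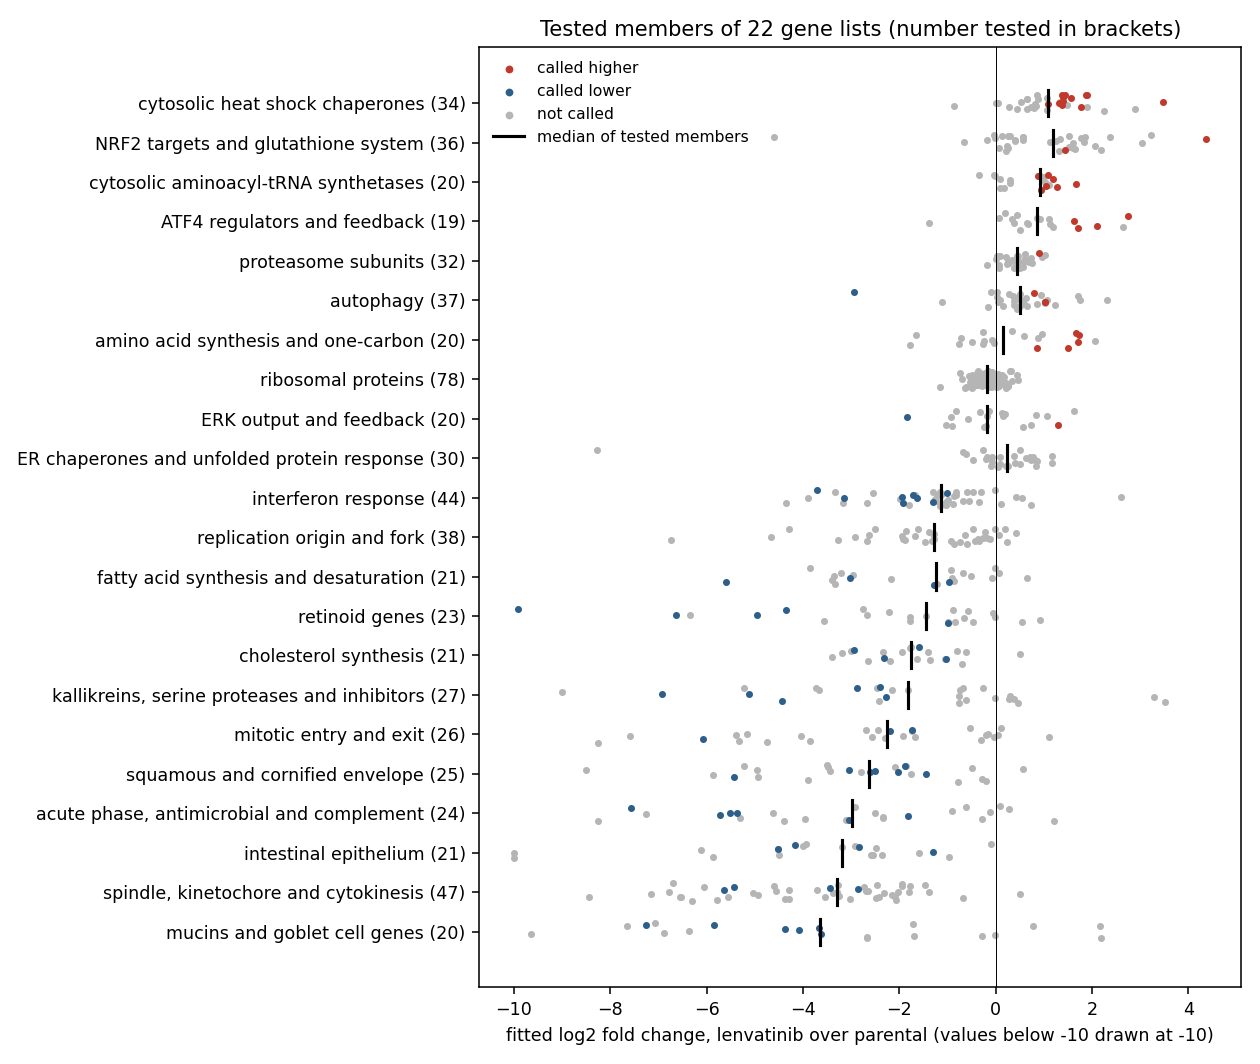
Gene lists. Each point is 1 tested member of a list, placed by its log2 fold change of lenvatinib over parental, with called members coloured by direction, values below -10 drawn at -10 and a bar at the median of the list. Heat shock, NRF2, synthetase and ATF4 lists sit to the right of 0, with medians of 1.08, 1.20, 0.93 and 0.86, and spindle, mucin and intestinal lists sit furthest to the left, with medians of -3.29, -3.64 and -3.19.

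For 9 lists without a called gene, the counts by other tests were as follows, each as lower and then higher after lenvatinib. At an unadjusted edgeR p under 0.05 they were 11 and 0 of 38 replication genes, 9 and 2 of 30 recombination genes, 5 and 1 of 24 immediate early genes, and 6 and 1 of 19 Notch genes. DESeq2 called 11 and 0 of the replication genes, 13 and 2 of the recombination genes, 6 and 0 of the immediate early genes and 4 and 0 of the Notch genes, and limma-voom 0 and 0, 1 and 0, 2 and 0, and 0 and 0 of these lists in turn. For the unfolded protein response, glycolysis and hypoxia lists the unadjusted counts were 2 and 11, 6 and 0, and 3 and 3, against 1 and 6, 8 and 0, and 4 and 1 by DESeq2 and 1 and 3, 1 and 0, and 2 and 1 by limma-voom. For nuclear respiratory chain and ribosomal protein genes the unadjusted counts were 7 and 2 and 2 and 1, against 4 and 0 and 2 and 0 by DESeq2 and 0 and 0 in both by limma-voom.

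Some of the largest called changes lay outside these lists. Arfgef3, a relative of ARF exchange factors, had 13.8 and 10.3 CPM after lenvatinib, against 1.42 and 0.725 CPM in the parental libraries (3.52, SE 0.37, adjusted p = 0.0361 by edgeR), and Trnp1, a nuclear protein studied in neural progenitors, had 11.1 and 14.6 CPM after lenvatinib, against 0.837 and 2.499 CPM in the parental libraries (3.15, SE 0.43, adjusted p = 0.0418 by edgeR). Katnal1, a microtubule-severing subunit, and Paqr3, a membrane protein of the Golgi, rose by 2.37 and 2.22. Flacc1, a coiled-coil protein, had 0 counts in both lenvatinib libraries and 5.74 and 6.25 CPM in the parental ones, at least 117-fold lower with that floor of 3 counts (edgeR adjusted p = 0.0446). Otop3, a proton channel (-7.48), and Tenm4, a teneurin adhesion protein (-5.69), fell. The largest drops in CPM included those of Emp1, an epithelial membrane protein (569 and 518 CPM in the lenvatinib libraries and 2568 and 2203 CPM in the parental libraries; -2.13), Tns4, a tensin of focal adhesions (245 and 259.7 CPM in the lenvatinib libraries and 1097 and 1134 CPM in the parental libraries; -2.14), and Myof, a membrane repair protein (247 and 284 CPM in the lenvatinib libraries and 832 and 765 CPM in the parental libraries; -1.6).

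Called genes were also set against all tested genes for features beyond their function. Protein-coding genes were 96.2% of called rises and 91.2% of called falls, against 78.9% of all tested genes. Long non-coding RNAs numbered 4 among the rises and 43 among the falls of 1883 tested. They were 1.38% of called rises and 6.18% of called falls, against 11.05% of all tested genes. Median gene span was 21.9 kb for rises and 20.6 kb for falls, against 16.3 kb for tested genes with a position. The median parental level was 26.6 CPM for rises and 35.3 CPM for falls, against 14.9 CPM over all tested, and the part of expression level in these shares was not tested. By chromosome, called falls were between 2.66% (chromosomes 6 and 12) and 5.18% (chromosome 4) of the tested genes of an autosome, and called rises between 0.81% (chromosome 2) and 2.72% (chromosome 8). Just inside the threshold lay S100a10, an annexin partner (-1.07), and Rad17, a checkpoint clamp loader (0.93). Just outside lay Aatf, a factor of ribosome biogenesis (0.96, SE 0.17, adjusted p = 0.0501 by edgeR), and G6pc3, a glucose-6-phosphatase (0.82, SE 0.14, adjusted p = 0.0503 by edgeR).

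The 2 lines differed little for most genes. Over all tested genes the median absolute difference between the log2 ratios of the lines was 0.26, and over called genes 0.23. The test itself favours genes with a small difference between lines. Of 11362 genes with at least 5 CPM in the highest of the 4 libraries, 90 (0.792%) had ratios that differed by more than 4-fold between lines, and 4 had ratios of more than 2-fold in opposite directions. With at least 20 CPM these numbers were 28 of 8593 (0.326%) and 0. With 1 library per line and group, these differences have no replicate and were not tested. Sprr2b, a small proline-rich envelope protein, had 0.189 and 3.704 CPM after lenvatinib, against 9.64 and 0.302 CPM in the parental libraries, log2 ratios of -5.42 in SNU-6624-TO and 3.47 in SNU-6625-TO. Plet1, a surface marker of progenitors and hair follicle, had 2.06 and 1.902 CPM after lenvatinib, against 11.1 and 0.484 CPM in the parental libraries, log2 ratios of -2.4 in SNU-6624-TO and 1.9 in SNU-6625-TO. In both the parental libraries of the 2 lines differed more than the lenvatinib libraries did.

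Other genes with line-specific values were often at or near 0 in a single library. Reg3b, an antimicrobial lectin, had 0 and 1.801 CPM after lenvatinib, against 0 and 46.8 CPM in the parental libraries, with counts in SNU-6625-TO alone. Foxf2, a forkhead factor, had 0 and 7.003 CPM after lenvatinib, against 0.87 and 8.89 CPM in the parental libraries, with 0 counts in the lenvatinib library of SNU-6624-TO. Pla2g4b, a cytosolic phospholipase, had 6.64 and 0 CPM after lenvatinib, against 7.36 and 8.95 CPM in the parental libraries, with 0 counts in the lenvatinib library of SNU-6625-TO. The basal keratin gene Krt14 and the hemidesmosomal collagen gene Col17a1 were highest in parental SNU-6624-TO: Krt14 had 0.413 and 0.589 CPM after lenvatinib, against 13.4 and 0.927 CPM in the parental libraries, and Col17a1 had 0.138 and 0.0505 CPM after lenvatinib, against 11.6 and 0.242 CPM in the parental libraries. The predicted gene Gm20716 had 37.3 and 59.04 CPM after lenvatinib, against 0 and 42.2 CPM in the parental libraries, with 0 counts in the parental library of SNU-6624-TO. None of these 6 genes was called.

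Set against the resistant libraries of the same lines, the lenvatinib libraries differed in 1061 of 17038 genes (6.23%), 355 higher (2.08%) and 706 lower (4.14%). This comparison shares the lenvatinib libraries with the one above, so each gene's own values are given side by side and no overlap is counted. Without the lenvatinib library of either line 0 genes were called by edgeR (2435 and 2308 at an unadjusted p under 0.05), without a parental library 90 and 118 were called, without a resistant library 6286 and 5867, and from the 4 lenvatinib and resistant libraries alone 234. With the library total as the only scaling the median over all genes moved to 0.14, from -0.02 with TMM, and the share of rises to 52.7%, from 33.5%. Epithelial genes differed in both: Hnf4a had 5.44 and 10 CPM after lenvatinib, 91.97 and 147 CPM in parental and 109 and 137 CPM in resistant libraries, a log2 fold change over resistant of -4.05 (edgeR adjusted p = 0.0174). Muc4 had 2.03 and 3.64 CPM after lenvatinib, 115 and 216 CPM in parental and 279 and 331 CPM in resistant libraries (-6.81 over resistant, edgeR adjusted p = 0.0174). Only the lenvatinib libraries were low for these genes.

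Gadd45a had 185 and 121 CPM after lenvatinib, 41.5 and 26.2 CPM in parental and 31.04 and 23.6 CPM in resistant libraries (2.47 over resistant, edgeR adjusted p = 0.0174). The heat shock gene Hsph1 had 394 and 289 CPM after lenvatinib, 31.1 and 31.2 CPM in parental and 110.1 and 292 CPM in resistant libraries, and was not called against resistant (0.86, edgeR adjusted p = 0.309). In that gene the resistant library of SNU-6625-TO reached the lenvatinib level and that of SNU-6624-TO did not. Foxm1 lay between: it had 0.534 and 0.404 CPM after lenvatinib, 28.6 and 30.8 CPM in parental and 8.297 and 1.54 CPM in resistant libraries (-3.14 over resistant, edgeR adjusted p = 0.0766). Of the 34 heat shock genes, 3 were called higher and 1 lower than in resistant libraries, and of the 47 spindle genes 0 in either direction.

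Markers of cell types that a tumour culture could hold were low in all groups. Fibroblast and stellate markers summed to 0.0884 and 0.221 CPM after lenvatinib, against 0.563 and 1.14 CPM in the parental libraries, and endothelial markers to 0.672 and 0.901 CPM, against 1.95 and 2.31 CPM. Macrophage and leukocyte markers summed to 47.8 and 31.7 CPM after lenvatinib, against 28.4 and 24.5 CPM; nearly all of this was the lysosomal gene Cd68 (46.5 and 28.9 CPM in the lenvatinib libraries and 28.4 and 23.7 CPM in the parental libraries), while the leukocyte genes Ptprc, Lyz2 and Adgre1 were at 0. Erythroid markers had 0 counts after lenvatinib. Goblet markers summed to 6.95 and 10.7 CPM after lenvatinib, against 2.103 and 2.31 CPM, mostly Muc2, and tuft markers to 0.389 and 0.1103 CPM, against 0.695 and 0.816 CPM. The part of such cells in the changes above was not tested.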

How the data were processed

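Messenger RNA of mouse organoids was sequenced. Total RNA was extracted with Trizol and RNeasy and libraries were made with a TruSeq Stranded mRNA kit, per the labels' protocols. The authors deposited raw read counts per gene for 45777 genes. Per the submitters' processing notes, the tools named are StringTie 2.1.3b, HISAT2 2.1.0, Trimmomatic 0.38, Bowtie2 2.3.4.1 and FastQC 0.11.7, and the build is mm10. Which program counted the reads, and whether it used strand, is not given in the sources used here. Without them, counts of overlapping, antisense or near-identical genes are uncertain, and multi-mapped reads may have been dropped or split.

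Counts were tested in R 4.3.3 with edgeR 4.0.16 (quasi-likelihood F test, Benjamini-Hochberg adjustment). The fit held the 6 lenvatinib, parental and resistant libraries of SNU-6624-TO and SNU-6625-TO, modelled by line and group after TMM scaling, and edgeR's default filter left 17038 genes. It had 2 residual degrees of freedom. The SE was derived from the log2 fold change and its F statistic. Libraries of 1 line come from the same tumour line, and their deviations from the group means correlated (Pearson r across genes 0.504 for lenvatinib with parental, 0.29 for lenvatinib with resistant and 0.288 for parental with resistant), so the line is a block. CPM printed for a gene are TMM-scaled, and so are the floors of 3 counts behind least fold changes. Sums over marker lists and the floors printed in CPM are scaled by total counts. The log2 ratio within a line used a prior count of 2. limma 3.58.1 and DESeq2 1.42.0 served as alternatives, with other scalings, filters and left-out libraries.

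Positions and promoters came from RefSeq annotation of GRCm38.p6, in which 45679 genes had a position. The 86 gene lists, the 9 marker lists and the comparison itself were chosen with earlier results of these data known. Genes were named by rule: the called genes of at least 5 CPM with the largest fold changes or CPM differences, up to 6 called members of each list with the largest changes (or the 2 with the smallest p), the target receptors, the genes nearest the threshold, the genes that differ most between lines, and list members at 0 in a group. Samples of the other 2 lines entered only the alternative with all 8 libraries. Some genes are not reported here.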

Additional observations from a re-analysis of the deposited data

Results flagged for a closer look

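Sprr2b differed in opposite directions in the 2 lines, with the lenvatinib library below the parental one in SNU-6624-TO and above it in SNU-6625-TO. It had 0.189 and 3.7 CPM in the lenvatinib libraries and 9.64 and 0.302 CPM in the parental libraries of SNU-6624-TO and SNU-6625-TO, and the log2 ratio of SNU-6624-TO minus that of SNU-6625-TO was -8.89. Plet1 did likewise, with 2.06 and 1.9 CPM in the lenvatinib libraries and 11.1 and 0.484 CPM in the parental libraries, a difference of -4.3. With 1 library per line and group neither difference was tested, and both genes were chosen as those with the most unlike ratios.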

How the results depend on the processing

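Called genes (edgeR, adjusted p under 0.05) numbered 985, with 289 higher and 696 lower after lenvatinib than in parental organoids. No replicate block gave 1053 calls, of which 737 were among the 985; RLE scaling, upper quartile scaling, the library total alone, and leaving out genes above 1% of counts stayed within 1.5 times. The fit to the 4 compared libraries, with replicate block, gave 7942 (3746 higher, 4196 lower), DESeq2 3648 (1319 and 2329), limma-voom 1697 (589 and 1108), no filter 174 (14 and 160) and a 2-fold minimum 39 (0 and 39, edgeR; without that minimum 5421 genes had an unadjusted p under 0.05). All 8 libraries gave 180 rises and a minimum of 1 CPM in 2 libraries 445. Leaving out single libraries gave 0 to 7798 calls (rises 0 to 3716, falls 0 to 4141). It was 0 without any lenvatinib or parental library and 7798 and 7769 without the resistant library of SNU-6624-TO and of SNU-6625-TO, which shared the estimate of spread; a fit without one of the compared libraries assumes that the lone library varies like the other groups. Against resistant libraries, the 1061 calls became 234 from 4 libraries, 3552 with DESeq2, 324 with no filter, 94 with a 2-fold minimum and 0 to 6286 without single libraries. For each of these counts the cause of the change was not tested.

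Of the named genes, none changed direction unless a library was left out. Then Trpm5 ranged from -7.55 to 0.63 (without the lenvatinib library of SNU-6625-TO), Reg3b from -4.72 to 0.93 (without the parental library of SNU-6625-TO), Sprr2b from -5.07 to 2.83 (without the parental library of SNU-6624-TO, and 2.38 without the lenvatinib one) and Plet1 from -3.09 to 3.14 (without the parental library of SNU-6624-TO). The median of 4 of 85 lists changed sign with the scaling (KLF and SP factors, Notch, forkhead factors, histone methyltransferases and demethylases), and that of 13 under some alternative, among them ribosomal proteins and p53 targets.

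Depth set a floor of 3 counts, or 0.053 and 0.0552 CPM in the lenvatinib libraries and 0.0497 and 0.0612 CPM in the parental libraries. Intervals and floors cover counting error only. With 1 library per line and group, effects in single lines have no test.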
